A study of Mus musculus with 16 samples.

Results

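The genes described here encode 10 enzymes that turn cholesterol into conjugated bile acids in the hepatocyte, and they were taken by name from the gene column of the deposited expression table. All 10 were found, namely Cyp7a1, Cyp8b1, Cyp27a1, Cyp7b1, Hsd3b7, Akr1d1, Amacr, Acox2, Baat and Slc27a5, of 16793 genes in the table. They were chosen with earlier results of these data known, so shares of all genes given beside their counts are description only. Messenger RNA had been sequenced from liver of mice with induced primary liver cancer, in 16 libraries that formed 4 groups of 4. The ovariectomy group (OVX) came from female mice whose ovaries had been removed, and its control (Sham) from female mice after a sham operation. The LCAT group came from mice with the enzyme LCAT overexpressed in the liver, and its control (Vec) from mice labelled with the vector alone. LCAT, lecithin-cholesterol acyltransferase, is secreted by hepatocytes and esterifies the cholesterol of high-density lipoprotein. All 16 libraries carried the genotype label WT. The sources used here do not give the age, the way the cancer was induced, the vector and its promoter, the sex of the vector mice, or whether tumour or surrounding tissue was taken. Nothing in the labels says that libraries of 1 group came from separate animals, so the p-values measure only the spread between these samples, which may be technical.

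Bile acids are made from cholesterol along a pair of routes. In the classical route Cyp7a1 hydroxylates cholesterol in the first and rate-limiting step, Hsd3b7 and Akr1d1 convert the sterol ring, Cyp8b1 adds the hydroxyl group that makes cholic acid, and Cyp27a1 oxidises the side chain. In the alternative route Cyp27a1 acts first, and Cyp7b1 adds the hydroxyl group that Cyp7a1 adds in the classical route. The side chain is then shortened in peroxisomes, where Amacr and Acox2 act. Slc27a5 joins bile acids to coenzyme A, and Baat joins them to an amino acid, in mice mainly taurine. Bile acids returning to the liver lower Cyp7a1 and Cyp8b1 through the receptor FXR (gene Nr1h4) and its target Nr0b2, and through the intestinal hormone FGF15 acting on Fgfr4 with its coreceptor Klb.

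Libraries held 17782178 to 27110501 reads in OVX, 21428827 to 25850761 in Sham, 12562943 to 19248762 in LCAT and 14412808 to 20659336 in Vec. Values below are the authors' normalized counts, each gene's reads divided by 1 size factor per library, given in library order with means ± SD (n = 4 libraries). Lcat, the overexpressed gene, had 5014, 5074, 5106 and 4531 in LCAT libraries, against 3348, 2926, 4521 and 2980.1 in Vec libraries. The lowest LCAT library lay just above the highest Vec library, and the difference was 1.45-fold (p = 0.0286 in an exact two-sided permutation test, its lower limit for groups of 4). The sources used here do not say whether reads of the introduced Lcat were counted under this gene. In the surgery experiment Lcat averaged 3389 ± 241 in OVX and 5662 ± 61.9 in Sham libraries (log2 -0.74, limma adjusted p = 0.000167). LCAT libraries averaged 4931 ± 269.7, below the Sham level of the other experiment. All 10 hepatocyte markers listed, Alb among them, had a mean above the low-value filter of 10 in every group. The Y-linked gene Ddx3y had 0 in all OVX libraries, against 0 to 2.74 in Sham libraries, and 772 to 1096 in LCAT libraries, against 1182 to 1332 in Vec libraries. Eif2s3y, also Y-linked, had 0 in all OVX, 0 to 0.851 in Sham, 560 to 634 in LCAT and 661 to 723 in Vec libraries. The vector libraries therefore showed Y-linked expression, as male tissue does, and the surgery libraries almost none. This check was chosen after these values were seen. Libraries 2 and 3 often both lay between libraries 1 and 4 in OVX, Sham and LCAT, and less often in Vec. This held for 9 of the 10 enzymes in OVX, 4 in Sham, 7 in LCAT and 3 in Vec. Over all genes with a group mean of at least 10 it held for 40.8% in OVX, 55.2% in Sham, 58.8% in LCAT and 11.3% in Vec.

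The sequences just before the transcription start are shown for 3 of the enzymes, Cyp8b1, which of the 10 had the largest log2 change between LCAT and Vec libraries, and Cyp27a1 and Akr1d1, which of the 10 had the largest called changes between OVX and Sham libraries. They are the 250 bases before the start from the RefSeq promoter table (build GRCm38.p6), 5′ to 3′ on the strand of each gene, and they matched 5 of the 10 enzymes by symbol, with Hsd3b7 and Acox2 the other two. Capitals mark matches to CAAAGTCCA, a core of the binding site of HNF4A, or CAAGGNCA, the site of NR5A2, which were searched on both strands. Both receptors are known activators of Cyp8b1.
Cyp8b1, chr9:121916306-121916555, minus strand: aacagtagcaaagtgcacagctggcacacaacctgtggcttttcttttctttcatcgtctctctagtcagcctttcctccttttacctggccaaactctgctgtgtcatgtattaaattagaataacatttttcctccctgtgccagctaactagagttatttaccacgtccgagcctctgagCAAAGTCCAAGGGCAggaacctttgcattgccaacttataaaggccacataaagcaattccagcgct
Cyp27a1, chr1:74713285-74713534, plus strand: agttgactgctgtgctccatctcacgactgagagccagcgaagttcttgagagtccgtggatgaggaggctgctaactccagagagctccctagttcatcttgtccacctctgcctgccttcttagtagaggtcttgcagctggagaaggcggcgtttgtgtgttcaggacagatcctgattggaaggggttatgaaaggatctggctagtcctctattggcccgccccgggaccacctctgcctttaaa
Akr1d1, chr6:37529923-37530172, plus strand: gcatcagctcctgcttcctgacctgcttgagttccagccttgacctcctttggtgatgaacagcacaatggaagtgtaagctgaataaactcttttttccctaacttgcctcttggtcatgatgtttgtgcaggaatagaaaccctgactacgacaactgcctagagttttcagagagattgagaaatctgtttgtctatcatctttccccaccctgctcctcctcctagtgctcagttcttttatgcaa
Cyp8b1 held both motifs, CAAAGTCCA from 67 to 59 bases and CAAGGGCA from 60 to 53 bases before the start, on the gene's own strand and sharing 2 bases. The windows of Cyp27a1, Hsd3b7, Akr1d1 and Acox2 held neither. Among 32851 RefSeq promoter windows of 300 bases, CAAGGNCA was found in 6.71%, CAAAGTCCA in 0.475% and both in 13 windows, or 0.0396%. A match of letters describes the window and does not show that a factor bound there in these livers.

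In the build GRCm38 (mm10) with the GENCODE M21 annotation, Cyp7a1 lies on chromosome 4 (6265612 to 6275633, minus strand), Cyp8b1 on chromosome 9 (121914356 to 121916305, minus) and Cyp27a1 on chromosome 1 (74713574 to 74737892, plus). Cyp7b1 lies on chromosome 3 (18071950 to 18243338, minus), Hsd3b7 on chromosome 7 (127800604 to 127803802, plus) and Akr1d1 on chromosome 6 (37530173 to 37568815, plus). Amacr lies on chromosome 15 (10981756 to 10996626, plus), Acox2 on chromosome 14 (8225511 to 8259353, minus), Baat on chromosome 4 (49489422 to 49506557, minus) and Slc27a5 on chromosome 7 (12988346 to 12998192, minus). The exons of Hsd3b7 share 1665 of 1987 bases with Gm49388 on the same strand and 970 with 9430064I24Rik on the opposite strand, so its count is uncertain. No exon of the other 9 enzymes overlaps another gene.

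Compared per length, as normalized counts per kilobase of exon, Acox2, Slc27a5 or Cyp27a1 was the most abundant in each group, and Cyp7a1 or Cyp7b1 the least. In OVX libraries Acox2 had the highest level at 1562 ± 122 per kilobase, with Slc27a5 next at 1433 ± 128, and their ranges overlapped. Cyp7a1 was lowest at 23.2 ± 0.716 and overlapped with Cyp7b1 at 26.6 ± 3.73. In Sham libraries Slc27a5 led at 1935 ± 179 per kilobase, overlapping with Cyp27a1 at 1762 ± 175, while Cyp7b1 was lowest at 22.2 ± 5.74, overlapping with Cyp7a1 at 27.0 ± 1.47. The order at both ends thus rested on neighbours that did not differ beyond their spread in either surgery group. In LCAT libraries Cyp27a1 led at 3290.1 ± 711 per kilobase, overlapping with Slc27a5 at 2839 ± 205. Cyp8b1 stood in the middle of the order there at 1213 ± 511 and overlapped with both neighbours, Acox2 at 1262 ± 162 and Hsd3b7 at 1192 ± 458. Cyp7a1 was the lowest there at 279 ± 154, overlapping with Akr1d1 at 398 ± 59.0. Vec libraries had the cleanest order: from Acox2 at 1426 ± 18.9 through Slc27a5, Cyp27a1, Baat, Amacr and Hsd3b7 to Akr1d1 at 237 ± 18.8, no neighbours overlapped. The lowest 3 there, Cyp7b1 at 82.9 ± 35.5, Cyp8b1 at 56.0 ± 24.6 and Cyp7a1 at 16.7 ± 10.4, overlapped in that order.

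**Figure D1:**
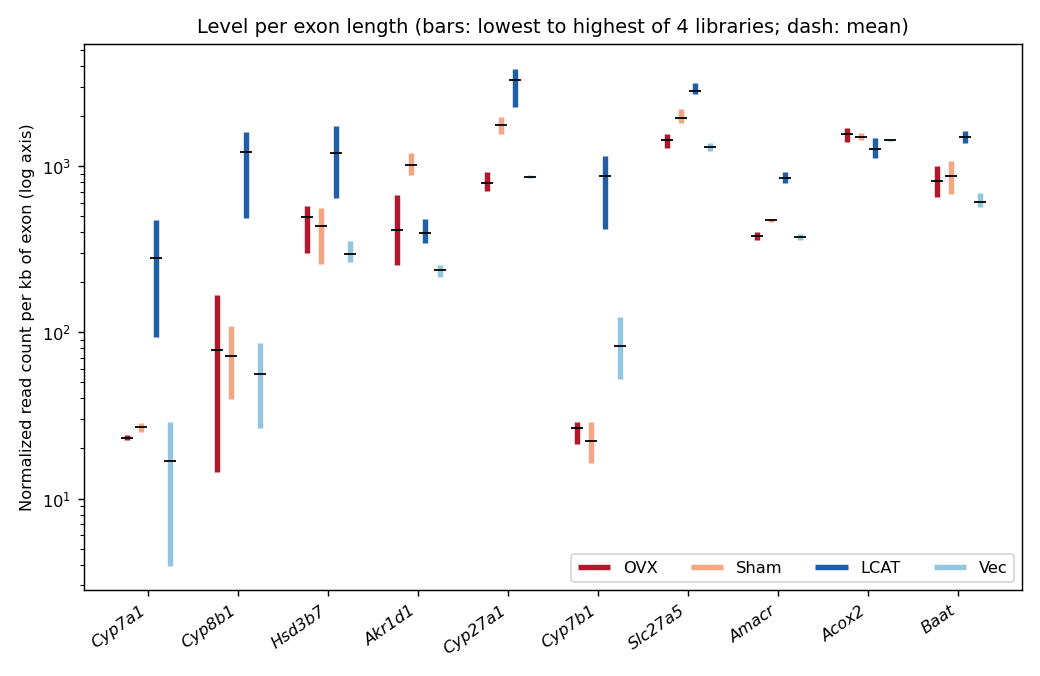
Level of each of the 10 enzymes as normalized counts per kilobase of exon on a log axis, where bars run from the lowest to the highest of the 4 libraries of a group and dashes mark the mean. Cyp7a1, Cyp7b1 and Cyp8b1 sit at the bottom in OVX, Sham and Vec libraries, and in LCAT libraries Cyp8b1 and Cyp7b1 move up among the other enzymes.

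OVX libraries were compared with Sham libraries to see what removal of the ovaries changes in a liver with cancer. Of the 10 enzymes 4 fell in OVX libraries and 0 rose: Akr1d1, Cyp27a1, Slc27a5 and Amacr, which reduce the ring, oxidise the side chain, activate the bile acid and invert the side chain's configuration. Both genes that fell by more than a factor of 2 act on both routes, and Cyp7a1 and Cyp7b1, the hydroxylases particular to each route, did not pass the test. A call is a limma adjusted p below 0.05 over all 13059 genes tested, and by it 39.6% of all genes were called, 20.6% lower and 19% higher. The count of 4 of 10 enzymes called in either direction thus lay near the share of all genes, although all 4 were lower. Of these calls 48.0% were higher, against 78.7% when libraries were scaled to equal totals. The median log2 change was -0.24 over the 10 enzymes and 0.00 over all genes tested (with equal library totals, 0.00 and 0.24). With all 8 libraries, no enzyme was called higher by limma on the deposited values or by edgeR or DESeq2. In these fits 0 were higher at an unadjusted p below 0.05. With equal library totals limma called 2 enzymes lower and 1, Acox2, higher, as given below.

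Cyp27a1, which oxidises the side chain in both routes, had 1349, 1422, 1447 and 1739.8 in OVX libraries, against 3726, 3464, 3176 and 2967 in Sham libraries. Every OVX library was lower than every Sham library, and the gap between the groups was wider than the range within either. Cyp27a1 averaged 1489.7 ± 172 in OVX and 3333 ± 332 in Sham libraries, a fold of 0.447 (log2 change -1.16, SE 0.103, limma adjusted p = 0.000155). Akr1d1, the reductase that bends the ring into its bile acid form, had 682, 938, 1013 and 1811 in OVX libraries, against 2373, 2473, 2821 and 3228 in Sham libraries. The groups did not overlap, but OVX library 4 stood closer to the lowest Sham library than to OVX library 1. Its fold was 0.385 (log2 change -1.38, SE 0.264, limma adjusted p = 0.00479). Genes called at least 2-fold lower made up 3.51% of those tested, and Cyp27a1 and Akr1d1 were the 2 of 10 enzymes among them.

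Amacr, the racemase that prepares the side chain for peroxisomal shortening, had 922, 991, 972 and 1037 in OVX libraries, against 1215, 1229, 1191 and 1238 in Sham libraries. The change was small but the libraries of each group lay close together, with log2 -0.31 (SE 0.0600, limma adjusted p = 0.0046). Slc27a5, the bile acid-CoA ligase, had 3629, 3203, 3536 and 2986 in OVX libraries, against 4244, 5131, 4311 and 4345 in Sham libraries. The groups were separate, and the change was log2 -0.43 (SE 0.0915, limma adjusted p = 0.00721). These 2 calls depended on the scaling: with equal library totals, which moved the median of all genes to 0.24, Amacr changed by -0.07 and Slc27a5 by -0.19 and neither passed, while Cyp27a1 and Akr1d1 still did.

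Cyp7a1 itself had 94.0, 98.6, 95.0 and 100.3 in OVX libraries, against 117, 111, 118 and 105 in Sham libraries, resting on 102 to 146 reads in OVX and 111 to 139 in Sham. All OVX values were below all Sham values, yet the change of -0.21 did not pass (95% confidence interval -0.45 to 0.02, limma adjusted p = 0.124), and it was 0.02 with equal library totals. With Cyp7a1, the groups did not overlap in 5 of the 10 enzymes, each lower in OVX, as was the case for 20.1% of all genes tested. Cyp8b1, which sets the share of cholic acid, had 28.3, 103, 150.4 and 326 in OVX libraries, against 213, 147, 122 and 77.6 in Sham libraries. It varied more than 10-fold among OVX libraries, whose range held the whole Sham range, and the interval of its log2 change, -1.77 to 1.26, allowed large changes either way (limma adjusted p = 0.781). Its mean was 152 ± 126 in OVX and 139.8 ± 56.5 in Sham libraries, so the mean was higher in OVX while the log2 change, -0.26, was negative. Cyp7b1, the hydroxylase of the alternative route, had 45.8, 62.8, 58.9 and 62.9 in OVX libraries, against 54.8, 62.1, 40.0 and 35.6 in Sham libraries. These groups overlapped too, with an interval of -0.21 to 0.77 (limma adjusted p = 0.327).

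The other 3 enzymes also overlapped between the groups. Hsd3b7, the dehydrogenase that follows the first hydroxylation, had 1072, 1139, 594 and 1102 in OVX libraries, against 936, 932, 1108 and 515 in Sham libraries, with 1 low library in each group and an interval of -0.47 to 0.81. Acox2, the oxidase that begins side chain shortening, averaged 4628 ± 362 in OVX and 4415 ± 183 in Sham libraries, with an interval of -0.10 to 0.23 (limma adjusted p = 0.508). It was called higher, at a log2 change of 0.31, with equal library totals (limma adjusted p = 0.0153). Baat, which attaches the amino acid, averaged 1578 ± 283 in OVX and 1697 ± 319 in Sham libraries, with an interval of -0.48 to 0.27 (limma adjusted p = 0.645). Because libraries 2 and 3 often lay between libraries 1 and 4, the fit was repeated on libraries 1 and 4 alone, where limma and edgeR called 0 genes in all and so 0 enzymes. At an unadjusted p below 0.05, 2 enzymes were lower by limma and 1 by edgeR. The limma log2 changes there stayed near those of all 8 libraries, at -1.12 for Cyp27a1, -1.32 for Akr1d1, -0.33 for Amacr and -0.38 for Slc27a5.

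**Figure D2:**
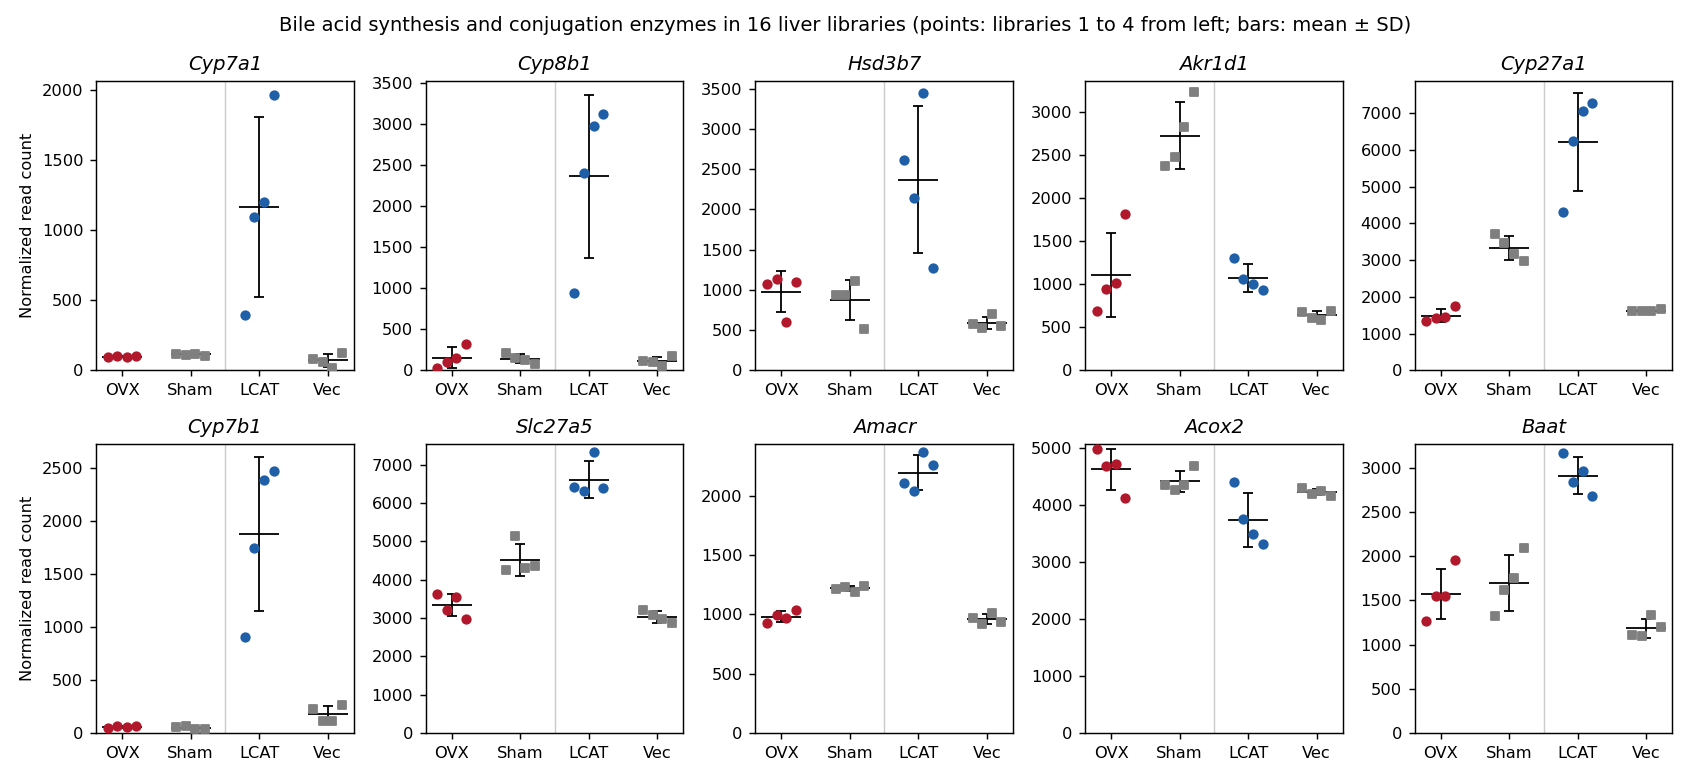
Normalized counts of the 10 enzymes in each library on linear axes from 0, 1 panel per gene, with OVX left of Sham and LCAT left of Vec, points for libraries 1 to 4 and black bars for mean ± SD. Cyp27a1 and Akr1d1 are separate between OVX and Sham libraries, and all enzymes but Acox2 are separate between LCAT and Vec libraries.

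Among genes around these enzymes, 2 importers of bile acids had larger log2 changes in OVX libraries than any of the enzymes. Slc10a1, the main sodium-coupled bile acid importer of hepatocytes, averaged 570.3 ± 78.0 in OVX and 2474 ± 107 in Sham libraries (log2 change -2.12, limma adjusted p = 1.95e-05). Slco1a4, a sodium-independent organic anion importer, averaged 118 ± 29.0 in OVX and 618 ± 132 in Sham libraries (log2 -2.39, limma adjusted p = 0.000125). Abcb4, which exports phospholipid into bile, changed by -0.75 (limma adjusted p = 0.00115). Of the 10 bile acid transporters tested, 5 fell and 1 rose, with a median log2 change of -0.39. Over all genes tested 20.6% were called lower and 19% higher. Of 12 further genes of bile acid synthesis and side chain metabolism 6 fell and the other 6 did not pass, with a median of -0.49. They included Cyp2c70, which makes muricholic acid in mice (log2 -0.76, limma adjusted p = 9.68e-05), and Scp2, the peroxisomal thiolase and sterol carrier (log2 -0.85, limma adjusted p = 0.00159). The largest change in that list was that of Cyp46a1, a cholesterol hydroxylase best known from brain, at -2.84 (limma adjusted p = 0.00216), but it averaged only 4.81 ± 1.78 in OVX and 44.5 ± 24.6 in Sham libraries.

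Of 13 tested genes that sense bile acids or control their synthesis, 2 were called higher and 3 lower in OVX libraries. Over all genes tested 19% were called higher and 20.6% lower, so these counts lay near the shares of all genes. Nr0b2, the repressor induced by FXR, averaged 807 ± 144 in OVX and 466 ± 144 in Sham libraries (log2 0.83, limma adjusted p = 0.022). Klb, the coreceptor of FGF15, averaged 327 ± 32.0 in OVX and 672 ± 46.7 in Sham libraries (log2 -1.04, limma adjusted p = 0.000145). Nr1i2, the pregnane X receptor, changed by -0.79 (limma adjusted p = 0.000645) and Nr5a2, an activator of bile acid synthesis genes, by 0.23 (limma adjusted p = 0.0365). Mafg, another repressor of bile acid synthesis genes, was lower at -0.25 (limma adjusted p = 0.0347) and is named to complete the count of 5. The repressor Nr0b2 was thus higher, while the repressor Mafg and Klb, through which FGF15 lowers synthesis, were lower. Fgfr4 (-0.15, limma adjusted p = 0.105), Nr1h4 (-0.13, limma adjusted p = 0.611) and Hnf4a (-0.05, limma adjusted p = 0.718) did not pass.

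In bulk liver, fewer hepatocytes and less of an RNA per hepatocyte cannot be told apart. Of 10 hepatocyte markers 3 fell and the other 7 did not pass in OVX libraries, where 20.6% of all genes tested were called lower. Their summed level was 3254839 to 3703261 in OVX, against 3850607 to 5012870 in Sham libraries. Alb was the largest part of that sum, with 1803705 ± 45520 in OVX and 2587181 ± 407746 in Sham libraries. Fgb, Hpx, Ambp and Apob averaged higher in OVX libraries but were not called. All 6 markers of tumour and proliferation rose, where 19% of all genes tested were called higher. Their summed level was 13701 to 27907 in OVX, against 8155 to 9969 in Sham libraries. Afp was the largest part of that sum, with 14495 ± 6575 in OVX and 5710 ± 1286 in Sham libraries. Bile duct markers summed to 38992 to 106358 in OVX, against 17713 to 25610 in Sham libraries, with 3 of 7 tested higher and 1 lower. Most of that sum was Spp1, with 76009 ± 29564 in OVX and 18253 ± 2869 in Sham libraries. Stellate cell markers summed to 4028 to 6249 in OVX, against 3226 to 3415 in Sham libraries, with 4 of 6 higher and 1 lower. Macrophage markers, 3 of 7 lower, summed to 2824 to 4742 in OVX, against 4486 to 4826 in Sham libraries, and endothelial markers, 3 of 5 lower, to 2166 to 2225, against 3102 to 3204. None of these markers was at 0 throughout a surgery group, and the 6 lymphocyte markers were too low to be tested. The part of these shifts in the enzymes' changes was not tested.

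LCAT libraries were compared with Vec libraries to see what overexpression of LCAT changes in a liver with cancer. Of the 10 enzymes 9 rose in LCAT libraries and 0 fell, led by the hydroxylases Cyp8b1, Cyp7a1 and Cyp7b1. Hsd3b7 and Cyp27a1 rose nearly 4-fold, the conjugation enzymes Baat and Slc27a5 and the racemase Amacr more than 2-fold, and Akr1d1 less. Acox2 alone did not pass. By the same rule over 13095 genes, 40.7% were called, 20.2% higher and 20.5% lower, and 49.7% of the calls were higher, against 31.1% with equal library totals. The median log2 change was 1.60 over the enzymes and 0.00 over all genes tested (with equal library totals, 1.41 and -0.18). With all 8 libraries, no enzyme was called lower by limma on the deposited values or by edgeR or DESeq2. In these fits 0 were lower at an unadjusted p below 0.05. Acox2 was called lower by limma under other settings, as given below. In all 9 the LCAT values lay above the Vec values, which held for 20.2% of all genes tested, and 8 of 10 were called at least 2-fold higher, against 6.86% of all genes. Because the enzymes were chosen with earlier results known, these shares do not test them as a set.

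Cyp8b1 had 944, 2406, 2984 and 3124 in LCAT libraries, against 114, 102, 51.6 and 169 in Vec libraries. The lowest LCAT library, number 1, was still more than 5 times the highest Vec library. Cyp8b1, whose promoter is printed above with the HNF4A and NR5A2 motifs, averaged 2365 ± 997 in LCAT and 109 ± 48.0 in Vec libraries, 21.1-fold higher (log2 4.40, SE 0.455, limma adjusted p = 0.000208), and 38 genes had a larger log2 change. Cyp7a1 had 394, 1094, 1197 and 1966 in LCAT libraries, against 82.5, 59.8, 16.5 and 121 in Vec libraries, from 253 to 1272 reads in LCAT and 15 to 138 in Vec. The groups were separate, although values ranged widely within each: LCAT library 4 was highest and Vec library 3 far below the rest. Its rise was 17.5-fold (log2 4.13, SE 0.659, 95% confidence interval 2.63 to 5.64, limma adjusted p = 0.00179), and 57 genes had a larger log2 change.

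Cyp7b1 had 904, 1745, 2389 and 2475 in LCAT libraries, against 222, 113, 116 and 266 in Vec libraries. Again LCAT library 1 was the lowest of its group and all LCAT values were above all Vec values, a 10.4-fold rise (log2 3.38, SE 0.394, limma adjusted p = 0.000379). Cyp27a1 had 4319.9, 6242, 7055 and 7283 in LCAT libraries, against 1603, 1611, 1618 and 1677 in Vec libraries. Vec libraries were nearly level while LCAT libraries spread upward from library 1, and the rise was 3.75-fold (log2 1.91, SE 0.159, limma adjusted p = 6.65e-05). Hsd3b7 had 2617, 2138, 3448 and 1272 in LCAT libraries, against 578, 526, 699.9 and 549 in Vec libraries. Here LCAT library 4, not library 1, was the lowest, and the rise was 3.80-fold (log2 1.93, SE 0.274, limma adjusted p = 0.00102).

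The later enzymes were more even within the LCAT group. Baat had 3170.3, 2838, 2965 and 2678 in LCAT libraries, against 1112, 1101, 1334 and 1201 in Vec libraries (2.46-fold, limma adjusted p = 2.92e-05). Slc27a5 had 6425, 6303, 7326 and 6405 in LCAT libraries, against 3220.2, 3067, 2966 and 2861 in Vec libraries (2.18-fold, limma adjusted p = 3.13e-05). Amacr had 2103, 2039, 2365 and 2258 in LCAT libraries, against 971, 921, 1011 and 932 in Vec libraries (2.28-fold, limma adjusted p = 2.17e-05). All 3 were separate between the groups by a wide margin. Akr1d1 had 1299, 1059.8, 1003 and 932 in LCAT libraries, against 678, 609.8, 584 and 687 in Vec libraries, and it was highest where Cyp7a1, Cyp8b1, Cyp7b1 and Cyp27a1 were lowest, in LCAT library 1. It rose 1.67-fold (log2 0.74, SE 0.118, limma adjusted p = 0.0018). Acox2 had 4402, 3748, 3488 and 3308 in LCAT libraries, against 4295, 4198, 4239 and 4166 in Vec libraries, so that only LCAT library 1 was above the Vec range and the other 3 were below it. Its log2 change of -0.19 (interval -0.41 to 0.04) did not pass (limma adjusted p = 0.161), but without LCAT library 1 it was called lower at -0.27 (limma adjusted p = 0.0115), and with equal library totals at -0.37 (limma adjusted p = 0.00541). With libraries 1 and 4 alone, limma called 0 of the 10 enzymes and 3 genes in all, and edgeR 0 enzymes, while 9 enzymes were higher at an unadjusted p below 0.05 in each fit. The largest rises were smaller there, at log2 3.62 for Cyp8b1, 3.13 for Cyp7a1 and 2.62 for Cyp7b1 by limma, and 3.85, 3.54 and 2.80 by edgeR.

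Importers of bile acids rose beside the enzymes in LCAT libraries. Slc10a1 averaged 3455 ± 517 in LCAT and 435 ± 106 in Vec libraries (log2 3.01, limma adjusted p = 1.54e-05). Slco1b2, an organic anion importer of the hepatocyte, averaged 5899.6 ± 3031 in LCAT and 693 ± 117 in Vec libraries (log2 2.91, limma adjusted p = 0.000936). Slco1a4 averaged 208 ± 84.6 in LCAT and 19.6 ± 8.06 in Vec libraries (log2 3.36, limma adjusted p = 0.000677). Of 10 transporters 6 rose and 1 fell, with a median log2 change of 0.80. Over all genes tested 20.2% were called higher and 20.5% lower. Of the 12 further synthesis and side chain genes 8 rose and 2 fell, with a median of 0.64. Hsd17b4, the peroxisomal bifunctional enzyme that follows Acox2, changed by 0.84 (limma adjusted p = 0.000153), Scp2 by 0.83 (limma adjusted p = 0.000573) and the hydroxysteroid dehydrogenase Akr1c14 by 0.70 (limma adjusted p = 0.000738). The peroxisomal steps on either side of Acox2, those of Amacr, Hsd17b4 and Scp2, thus rose while Acox2 did not pass.

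Of 13 sensing and control genes 5 rose and the other 8 did not pass in LCAT libraries. Over all genes tested 20.2% were called higher and 20.5% lower. The median log2 change of the sensing and control genes was 0.06, or -0.13 with equal library totals. Nr1h4, which encodes FXR, averaged 2116 ± 112 in LCAT and 1312 ± 60.3 in Vec libraries (log2 0.69, limma adjusted p = 0.000278). Nr1i3, the constitutive androstane receptor, averaged 1819 ± 559.9 in LCAT and 408 ± 77.1 in Vec libraries (log2 2.11, limma adjusted p = 0.000413). Both parts of the FGF15 receptor complex rose, Fgfr4 by 0.62 (limma adjusted p = 0.0056) and Klb by 1.15 (limma adjusted p = 0.00768). Nr0b2 averaged 515 ± 199 in LCAT and 305 ± 48.4 in Vec libraries and did not pass (log2 0.69, limma adjusted p = 0.0651). Nor did the genes of the receptors whose motifs stand in the Cyp8b1 promoter: Nr5a2 changed by -0.15 (limma adjusted p = 0.38) and Hnf4a by -0.06 (limma adjusted p = 0.607).

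**Figure D3:**
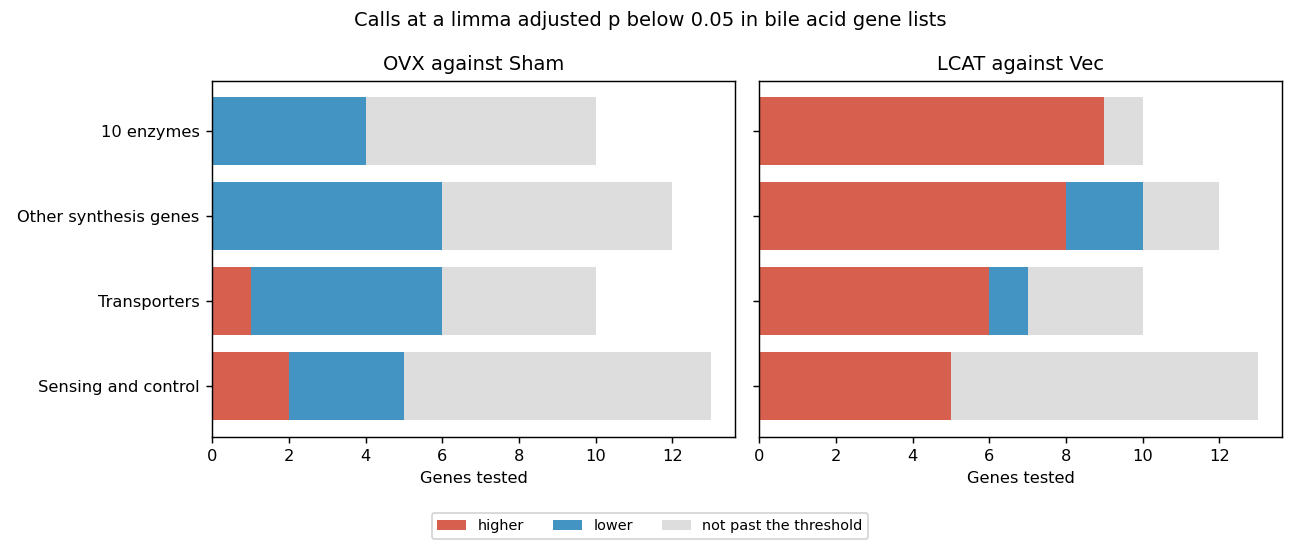
Number of genes called higher, called lower or not past a limma adjusted p of 0.05 among the 10 enzymes and 3 further bile acid lists, for OVX against Sham (left) and LCAT against Vec (right). Of the enzymes 4 were lower and 0 higher in OVX libraries, and 9 higher and 0 lower in LCAT libraries.

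Of the hepatocyte markers 2 of 10 were higher and 1 lower in LCAT libraries, where 20.2% of all genes tested were called higher and 20.5% lower. Their summed level was 2859308 to 4101598 in LCAT, against 3342421 to 3592715 in Vec libraries. Alb was the largest part of it, with 1800840 ± 193348 in LCAT and 1886614 ± 81800 in Vec libraries. Macrophage markers rose in 7 of 7 cases, with a summed level of 1739 to 3744 in LCAT, against 543 to 757 in Vec libraries. Bile duct markers summed to 25041 to 32307 in LCAT, against 71084 to 88414 in Vec libraries, although 5 of 8 rose and 2 fell. Again most of the sum was Spp1, with 25711 ± 3047 in LCAT and 72505 ± 8154 in Vec libraries. Krt19, a keratin of duct cells, averaged 409.8 ± 103 in LCAT and 31.8 ± 9.88 in Vec libraries, Epcam 297 ± 121 in LCAT and 36.5 ± 4.55 in Vec libraries, and Cftr was at 0 in every Vec library. Tspan8, which fell as Spp1 did, averaged 1607 ± 407 in LCAT and 2940 ± 23.1 in Vec libraries, and Sox9 did not pass. These duct markers, like Mafg above, were named after their values were seen. Stellate cell markers, 2 of 6 higher and 1 lower, summed to 3408 to 4039.9 in LCAT, against 4755 to 5234 in Vec libraries, and endothelial markers, 3 of 5 higher and 1 lower, to 1649 to 2968, against 1408 to 1733. Tumour and proliferation markers, 1 of 6 lower, summed to 5781 to 13724 in LCAT, against 9547 to 12154 in Vec libraries, and the 1 lymphocyte marker tested did not pass. The part of these shifts in the enzymes' rise was not tested.

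The effect of OVX was then set against that of LCAT, in 1 fit of all 16 libraries, as the log2 change of OVX over Sham minus that of LCAT over Vec. It was called lower for 9 of the 10 enzymes, where 44.8% of 13166 genes were called, 21.9% lower and 22.9% higher, and 51.2% of the calls were higher, against 78.7% with equal library totals. The median difference was -1.94 over the enzymes and 0.04 over all genes tested. The largest differences were those of Cyp8b1 (-4.66, limma adjusted p = 0.000458), Cyp7a1 (-4.35, limma adjusted p = 0.000161) and Cyp7b1 (-3.10, limma adjusted p = 8.47e-05), all 3 called in LCAT against Vec and not in OVX against Sham. Cyp27a1 (-3.07, limma adjusted p = 3.81e-08), Akr1d1 (-2.11, limma adjusted p = 6.16e-05), Slc27a5 (-1.56, limma adjusted p = 2.38e-07) and Amacr (-1.50, limma adjusted p = 4.1e-08) were called in opposite directions by the separate comparisons. With equal library totals the OVX changes of Slc27a5 and Amacr did not pass, while those of Cyp27a1 and Akr1d1 did. Hsd3b7 differed by -1.76 (limma adjusted p = 0.00307), Baat by -1.40 (limma adjusted p = 5.11e-05), and Acox2 by 0.25, which did not pass (limma adjusted p = 0.115). Acox2 was called higher at 0.33 without LCAT library 1 (limma adjusted p = 0.0127) and at 0.68 with equal library totals (limma adjusted p = 0.000153), which moved the median of all genes to 0.46. The experiments also differed in Y-linked expression, so that the kind of treatment and the difference in Y-linked expression cannot be told apart. With libraries 1 and 4 alone, limma and edgeR each called only Cyp27a1, and 8 enzymes were lower at an unadjusted p below 0.05 in each fit.

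**Figure D4:**
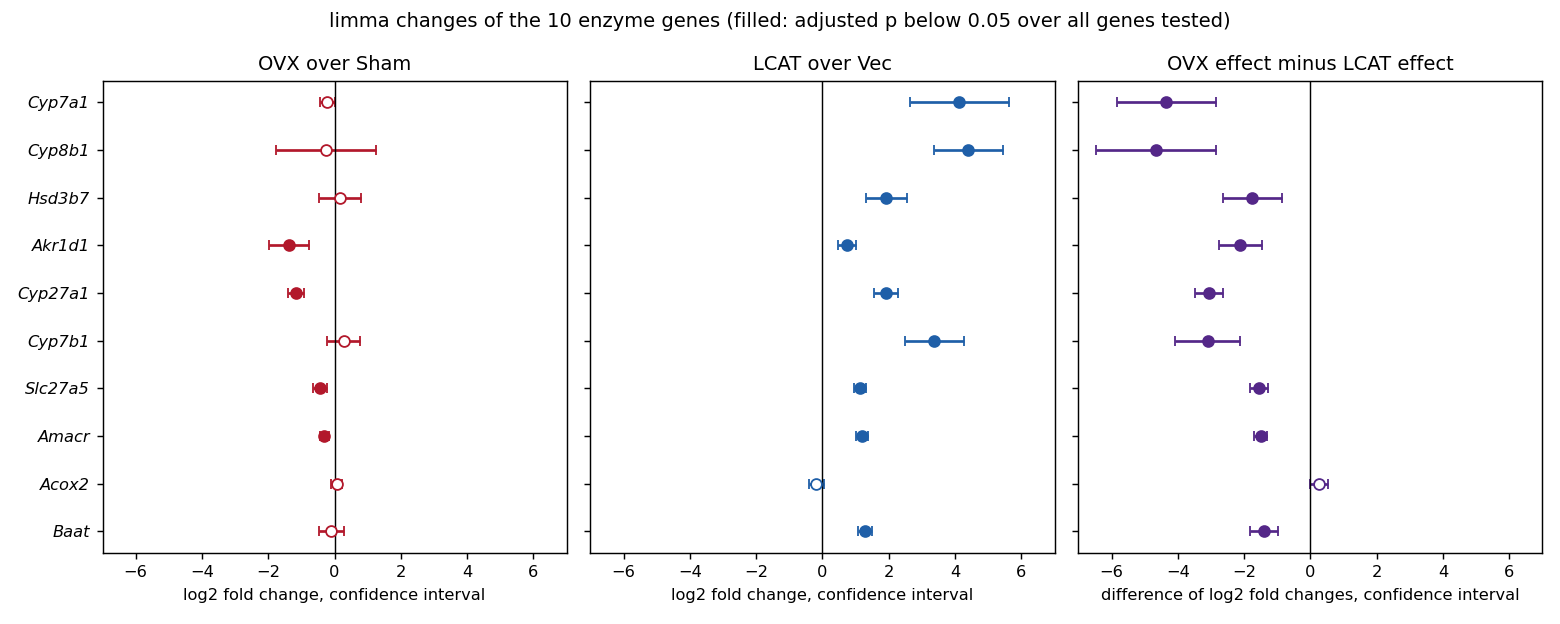
Log2 fold changes of the 10 enzymes with 95% confidence intervals, for OVX over Sham, LCAT over Vec and the difference of these effects, from limma on log2(normalized count + 1) with n = 4 libraries per group, with filled points for an adjusted p below 0.05. LCAT changes run from -0.19 for Acox2 to 4.40 for Cyp8b1, and OVX changes from -1.38 for Akr1d1 to 0.28 for Cyp7b1.

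Ratios between enzymes within a library, per kilobase of exon, compare the RNA levels of enzymes of the routes, and they are given without a test. They do not measure the use of either route, and in Vec libraries Cyp7a1 rested on 15 to 138 reads. The log2 ratio of Cyp7a1 to Cyp7b1, the hydroxylases of the classical and the alternative route, averaged -0.19 ± 0.18 in OVX, 0.30 ± 0.35 in Sham, -1.75 ± 0.38 in LCAT and -2.50 ± 0.82 in Vec libraries (SD, n = 4). Per length, Cyp7a1 and Cyp7b1 thus lay close together in the surgery experiment, and Cyp7b1 was well above Cyp7a1 in the vector experiment. The log2 ratio of Cyp27a1 to Cyp7a1 averaged 5.06 ± 0.13 in OVX and 6.01 ± 0.12 in Sham libraries, and 3.74 ± 0.64 in LCAT and 5.97 ± 1.20 in Vec libraries. The log2 ratio of Cyp8b1 to Cyp7a1 averaged 1.27 ± 1.42 in OVX and 1.32 ± 0.55 in Sham libraries, and 2.19 ± 0.29 in LCAT and 1.92 ± 0.53 in Vec libraries. The ratios of Cyp7a1 to Cyp7b1 and of Cyp8b1 to Cyp7a1 overlapped within both pairs of groups. That of Cyp27a1 to Cyp7a1 overlapped in neither pair. The SD of the ratio of Cyp8b1 to Cyp7a1 was largest in OVX libraries, where Cyp8b1 varied far more than Cyp7a1.

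The genes whose pattern over all 16 libraries was most like that of Cyp7a1 and Cyp7b1 were found by the root mean square difference of their log2 values, each gene centred on its own mean, among 10805 genes with a mean of at least 50. For Cyp7a1 these were Cyp2e1, an ethanol-oxidising cytochrome P450 of pericentral hepatocytes (0.419), Scara3 (0.665) and Slc1a2, a glutamate transporter (0.703), where the median over all genes was 1.76. Cyp2e1 had 10978, 33358, 43439.6 and 49424 in LCAT libraries, against 2574, 1583, 803 and 3123 in Vec libraries. Like Cyp7a1 it was lowest in Vec library 3 and LCAT library 1 of their groups, and highest in library 4 of each. For Cyp7b1 the closest genes were Ces3a, a carboxylesterase (0.577), Cyp4a12b, a fatty acid hydroxylase that is higher in male mouse liver (0.723), and Sult2a8, a sulfotransferase (0.750), with a median of 2.14 over all genes. Ces3a had 9522, 14837, 17284 and 17809 in LCAT libraries, against 2567, 2661, 2087 and 2828 in Vec libraries. Ces3a and Cyp7b1 were both lowest in LCAT library 1 and highest in LCAT library 4. Cyp2e1 and Ces3a were chosen for likeness over these same libraries, so such shared orders follow in part from the choice. Cyp4a12b and Ces3a have close relatives in the genome, and the sources used here do not say how shared reads were counted.

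**Figure D5:**
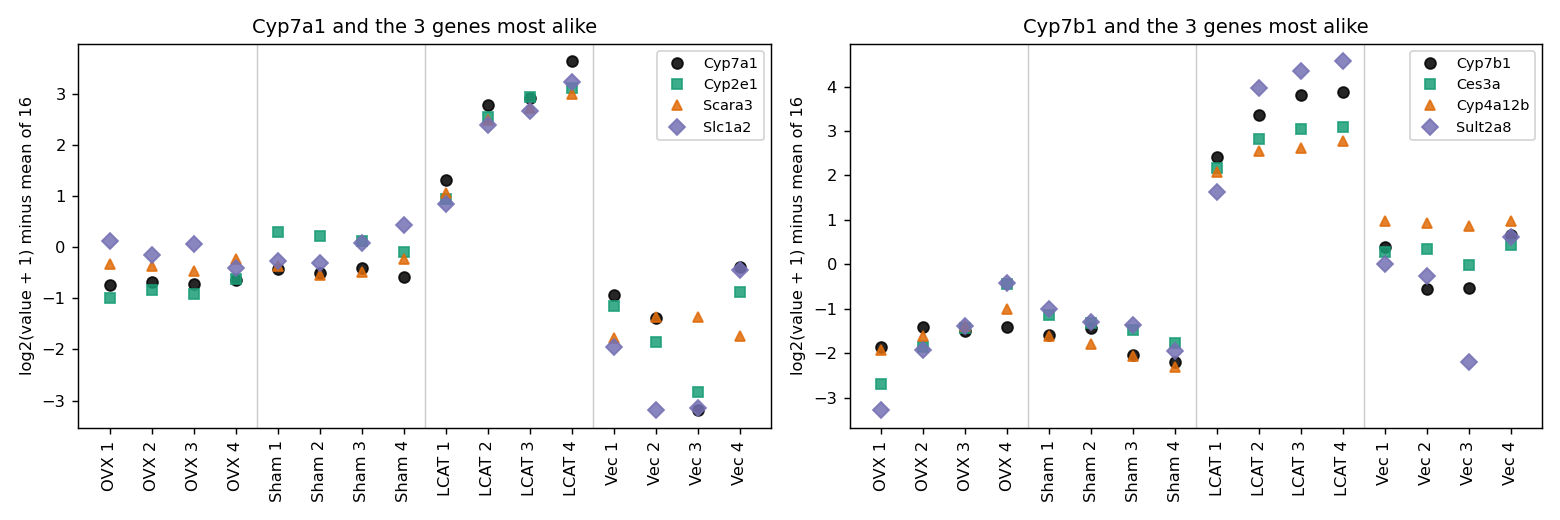
Log2(normalized count + 1) minus each gene's mean over the 16 libraries, for Cyp7a1 (left) and Cyp7b1 (right) with the 3 genes most alike, in library order. The LCAT libraries are highest in both panels, and LCAT library 1 is the lowest of the LCAT libraries for all 8 genes. The genes beside Cyp7a1 and Cyp7b1 were chosen for likeness over these same libraries.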

How the data were processed

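Polyadenylated RNA was extracted with TRIzol and made into libraries from liver by a BGI protocol, per the labels. FastQC, HISAT2, SAMtools and StringTie with the build mm10 are named in the submitters' processing notes. The sources used here do not give versions, annotation, counting tool or strand setting. The deposited values are a signal that the authors made by dividing each gene's read count by 1 size factor per library: multiplied back, 100% of values were whole reads within 0.01 read. Size factors of this kind hide a change shared by most genes.

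Groups came from the labels. Each comparison used its own 8 libraries, and the difference of effects all 16. limma 3.58.1 in R 4.3.3 was run on log2(value + 1), its prior trended and robust, over genes averaging at least 10, with Benjamini-Hochberg adjustment over all genes tested and a threshold of 0.05. A fold on this scale understates changes of low genes. Intervals are 95% limma intervals. Annotation was GENCODE M21, to which 16479 of 16793 genes matched by name. Besides the enzymes, 10 lists with 86 entries were described, 84 of them in the table used. The text names all enzymes, Lcat, 6 fixed control genes and up to 3 genes of smallest p per bile acid list and comparison, and the 3 genes most like Cyp7a1 and Cyp7b1, predicted genes left out. The members and lists were chosen with earlier results of these data known. Ddx3y, Eif2s3y and edgeR on libraries 1 and 4 were added after values were seen. Alternatives were edgeR 4.0.16 and DESeq2 1.42.0 on the recovered read counts, a pseudocount of 0.5 or 5, no low-value filter or one at 50, scaling to equal totals, by TMM or by median of ratios, 1 fit of all libraries, a replicate block, no trend, a 2-fold minimum, libraries 1 and 4 alone and leaving out each library. DESeq2 gave no adjusted p for 16 genes in OVX against Sham, 30 in LCAT against Vec and 21 in their difference. The limma script was tested on simulated data.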

Additional observations from a re-analysis of the deposited data

Results flagged for a closer look

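In groups of 4, a library was marked when its gap to the nearest other library, divided by the group's range, exceeded Dixon's 95% critical value, which chance does in about 5% of groups. Of 44 groups examined, 4 were marked. Hsd3b7 was lowest in OVX library 3 at 594, with 1072 in the nearest OVX library. Slc27a5 was highest in LCAT library 3 at 7326, with 6425 next, and in Sham library 2 at 5131, with 4345 next. Lcat was lowest in LCAT library 4 at 4531, with 5014 next. Leaving out these libraries changed the call of neither Hsd3b7 nor Slc27a5 in either comparison.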

How the results depend on the processing

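All 4 calls in OVX against Sham and all 9 in LCAT against Vec kept their direction under every alternative run; of 690 values of single enzymes outside the fits on libraries 1 and 4 alone, 672 kept direction and side of the threshold, 5 no longer passed, 6 newly passed and 7 changed sign. Cyp7a1 newly passed in OVX against Sham with no trend in the limma prior (limma adjusted p = 0.0471). All sign changes were of OVX changes that had not passed: Cyp7a1 at 0.024 with equal totals, Cyp8b1 at 0.13 with edgeR and 0.13 with DESeq2, and 0.30 with edgeR on libraries 1 and 4, Baat at 0.14 with equal totals. Leaving out 1 library gave -0.78 to 0.38 for Cyp8b1, -0.065 to 0.39 for Hsd3b7 and -0.22 to 0.0040 for Baat, the extremes that changed sign coming without OVX library 1, Sham library 4 and Sham library 4. Requiring a 2-fold change left 1458 of 5170 genes and 2 of 4 enzymes in OVX against Sham, and 1764 of 5332 genes in LCAT against Vec. Libraries 1 and 4 alone left 0 genes and 0 enzymes, 3 genes and 0 enzymes, and 97 genes and 1 enzyme in OVX against Sham, LCAT against Vec and the difference of effects by limma, and 0 and 0, 0 and 0, and 89 and 1 by edgeR; these fits have fewer samples. Equal totals moved the share of calls that were higher to 78.7%, 31.1% and 78.7%, from 48.0%, 49.7% and 51.2% as deposited. Leaving out each library called 4 enzymes in OVX against Sham each time, and 9 to 10 in LCAT against Vec. Libraries of the same number varied together little (correlations of -0.05 to 0.04 between OVX and Sham and -0.08 to 0.17 between LCAT and Vec). Nothing in the labels says that the numbers pair libraries, and low correlations cannot exclude it. With the replicate block 4339 and 4558 genes and 4 and 9 enzymes were called, and 5594 genes and 9 enzymes for the difference. Depth limits Cyp7a1 most, with 15 reads in 1 Vec library.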

Other observations

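Sham and Vec, from the separate experiments, belong in no comparison of the study and are given side by side without a test. Akr1d1 averaged 2724 ± 387 in Sham and 639.6 ± 50.8 in Vec libraries, and Cyp27a1 3333 ± 332 in Sham and 1627 ± 33.9 in Vec libraries. Cyp7b1 had the other order, with 48.1 ± 12.4 in Sham and 179.5 ± 76.9 in Vec libraries. Acox2 was near the same level in both, at 4415 ± 183 in Sham and 4224 ± 55.8 in Vec libraries. Surgery, vector and Y-linked expression all differ between these groups and cannot be told apart.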
